A study of Mus musculus with 4 samples.

Results

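The globin genes of the mouse comprise 8 listed members, the adult beta-like genes *Hbb-bs* and *Hbb-bt*, the adult alpha-like genes *Hba-a1* and *Hba-a2*, the embryonic beta-like genes *Hbb-y* and *Hbb-bh1*, the embryonic alpha-like gene *Hba-x*, and *Ahsp*, whose product is a chaperone of alpha globin. Members were matched by gene symbol, with no threshold on their values, though the symbols were listed with earlier results of these data known. Of the 8, 7 had a row among the 39186 genes of the deposited table, and all 7 were among the 32428 genes tested. *Ahsp* was not analysed here. The samples were 2 of *Pich*-KO and 2 of *Pich*-WT fetal liver (FL), all of the strain C57BL/6. Their RNA came from sorted LSK cells (Lin-Sca-1+c-Kit+), a fraction rich in hematopoietic stem cells. PICH is a DNA translocase of mitosis whose gene lies on the X chromosome. The *Pich*-KO line carries a short TALEN-made deletion in the second exon that leaves a truncated peptide, and *Pich*-WT embryos carry the intact gene. The labels name no treatment. The study's methods describe sorting from FLs of mid-gestation embryos, while the labels of these samples give neither the day of gestation nor the number of embryos in a sample, and nothing says that samples of a group came from separate embryos, so p-values measure only the spread between these samples, which may be technical.

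Hemoglobin is a tetramer of alpha-like and beta-like chains around heme. The first red cells of the yolk sac use embryonic chains, and red cells made in the FL use adult chains, a change called hemoglobin switching. The genes of each family lie side by side and compete for distant enhancers, the locus control region for the beta-like genes. Globin is made in the red-cell lineage, whose maturing cells carry the antigen Ter119. The lineage panel that the study describes for FL cells held antibodies to Ter119, CD4, CD8, Gr-1 and B220.

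The beta-like genes lie on the minus strand of chromosome 7 (GRCm38). *Hbb-bt* (ENSMUSG00000073940) spans 103812524 to 103813996, *Hbb-bs* (ENSMUSG00000052305) 103826534 to 103828096, *Hbb-bh1* (ENSMUSG00000052217) 103841637 to 103843164 and *Hbb-y* (ENSMUSG00000052187) 103851749 to 103853216. The alpha-like genes lie on the plus strand of chromosome 11. *Hba-x* (ENSMUSG00000055609) spans 32276400 to 32278116, *Hba-a1* (ENSMUSG00000069919) 32283511 to 32284465 and *Hba-a2* (ENSMUSG00000069917) 32296489 to 32297298. Each gene has 3 exons, and the coding sequence is 426 bases long in the alpha-like and 441 bases in the beta-like genes.

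The promoters are shown because members of one cluster differed in their change between the groups. Each line holds the 120 bases before the RefSeq start on GRCm38.p6, 5′ to 3′ on the gene's strand, and capitals mark 4 short motifs on either strand. The motif CCAAT reads ATTGG on the other strand. The motif CACCC likewise reads GGGTG there. The motif GATAA is TTATC on the opposite strand. The motif TATAA in turn is TTATA on that strand. In order, the windows are chr7:103827929-103828048 (minus strand), chr7:103813924-103814043 (minus), chr7:103853208-103853327 (minus), chr11:32283552-32283671 (plus) and chr11:32276480-32276599 (plus).
Hbb-bs: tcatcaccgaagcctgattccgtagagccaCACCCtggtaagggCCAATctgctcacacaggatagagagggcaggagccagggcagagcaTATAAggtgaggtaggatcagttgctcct
Hbb-bt: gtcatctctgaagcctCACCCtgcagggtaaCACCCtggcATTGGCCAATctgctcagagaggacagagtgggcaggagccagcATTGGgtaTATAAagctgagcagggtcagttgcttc
Hbb-y: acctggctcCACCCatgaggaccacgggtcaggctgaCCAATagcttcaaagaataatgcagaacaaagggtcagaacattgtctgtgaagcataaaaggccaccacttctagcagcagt
Hba-a1: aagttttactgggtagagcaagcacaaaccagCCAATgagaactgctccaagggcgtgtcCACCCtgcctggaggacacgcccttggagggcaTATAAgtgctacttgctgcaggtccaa
Hba-x: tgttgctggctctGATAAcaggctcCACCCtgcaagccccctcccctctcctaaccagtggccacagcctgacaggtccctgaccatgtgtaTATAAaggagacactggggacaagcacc

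The window of *Hba-a2* (chr11:32296372-32296491, plus strand) repeats that of *Hba-a1* shifted by 3 bases. *Hbb-bh1* had no entry. CACCC, the motif that KLF1 binds, was in all 6 windows matched and in 31.7% of the same windows before 32851 RefSeq starts of all genes. CCAAT was in all but that of *Hba-x* and in 21.3% of all windows. TATAA was in all but that of *Hbb-y* and in 11.8% of all windows, and it began 27 to 30 bases before the start. GATAA, a form of the site that GATA factors bind, was in that of *Hba-x* and in 10.5% of all windows. Other forms of that site were not searched for. *Hbb-bt* held 2 copies of CACCC and 3 of CCAAT, of which 2 lay on the opposite strand. These matches are a description of letters and not of binding.

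The adult globin genes and the embryonic gene *Hbb-bh1* were lower in *Pich*-KO LSK cells, while *Hbb-y* and *Hba-x* did not pass the test. Values are normalized counts, the reads on a gene divided by one size factor per sample, and limma was run on log2(normalized count + 1) with Benjamini-Hochberg adjustment over all genes tested. Of the 7 genes, 5 were lower at an adjusted p of 0.05 by limma, where 9.60% of all genes tested were lower. None was higher, where 7.58% of all genes were, and none was higher at an unadjusted p under 0.05 by limma or at an adjusted p of 0.05 by edgeR or DESeq2. For 5 of the 7 genes both *Pich*-KO values were below both *Pich*-WT values, where 27.2% of all genes tested had this order. The median log2 fold change was -2.29 over the 7 genes and 0.02 over all genes tested. In bulk RNA, fewer cells of a type and less RNA per cell cannot be told apart.

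**Figure D1:**
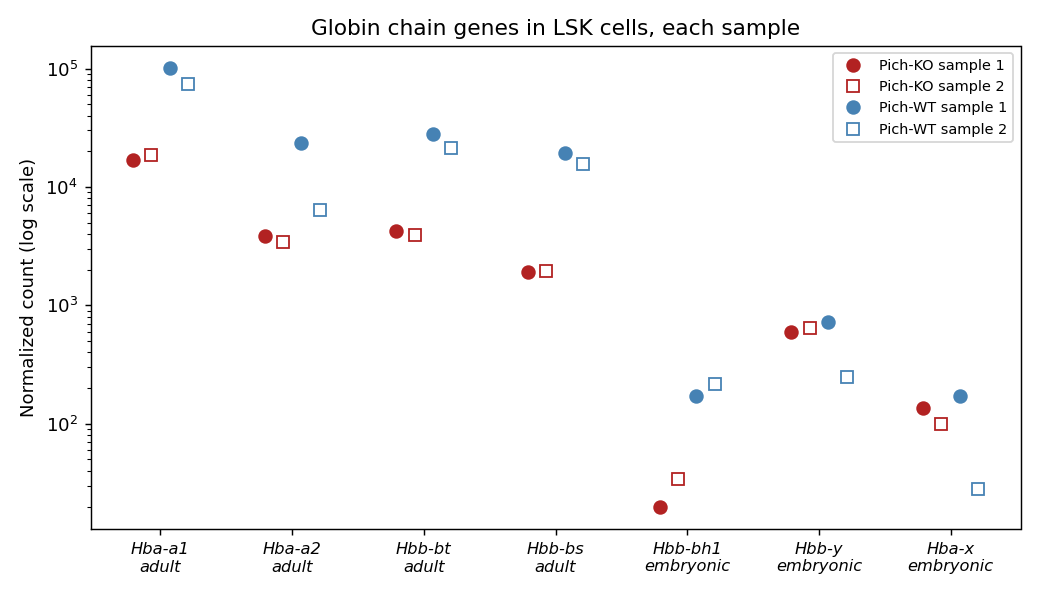
Normalized counts (log scale) of the 7 globin genes, with 1 point for each of the 2 *Pich*-KO and 2 *Pich*-WT samples and no error bars. Both *Pich*-KO points lie below both *Pich*-WT points for the 4 adult genes and *Hbb-bh1*, whereas the *Pich*-KO points of *Hbb-y* and *Hba-x* lie between the *Pich*-WT points.

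*Hbb-bs*, which encodes an adult beta chain, had 1921 and 1949.5 normalized counts in *Pich*-KO samples 1 and 2, against 19386 and 15651 in *Pich*-WT samples 1 and 2. Both *Pich*-KO samples were low and close to each other, and the groups were far apart. The means were 1935 ± 20.3 (SD, n = 2) and 17519 ± 2641 (SD, n = 2), 9.05-fold lower in *Pich*-KO, with a log2 fold change of -3.17 ± 0.11 (SE, limma with adjusted p = 9.03e-06).

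*Hbb-bt*, the second adult beta gene, had 4246 and 3956 normalized counts in *Pich*-KO against 27796 and 21175 in *Pich*-WT. The groups did not overlap. The means were 4101 ± 205 (SD, n = 2) and 24485 ± 4682 (SD, n = 2), 5.97-fold lower in *Pich*-KO, with a log2 fold change of -2.57 ± 0.12 (SE, limma with adjusted p = 2.87e-05).

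The coding sequences of *Hbb-bs* and *Hbb-bt* differ at 1 base (99.8% identity), and 53.2% of the 50-base stretches of the *Hbb-bs* transcript are also in that of *Hbb-bt*, so the split of reads between them is uncertain. With the reads of both summed, an alternative chosen after seeing the data, the log2 fold change was -2.79 ± 0.11 (SE, limma with adjusted p = 1.32e-05). *Hbb-bt* made up 68.8% and 67.0% of their reads in *Pich*-KO against 58.9% and 57.5% in *Pich*-WT. The 95% Wilson intervals, which cover counting error only, ran from 67.6% to 70.0% and 65.7% to 68.2% in *Pich*-KO, above 58.5% to 59.3% and 57.0% to 58.0% in *Pich*-WT. Thus the share of *Hbb-bt* was higher in both *Pich*-KO samples, within the limits of that split.

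*Hba-a1*, which encodes the adult alpha chain, had the highest normalized counts of the 7 genes in every sample. It had 16798 and 18762 in *Pich*-KO against 101298 and 74642 in *Pich*-WT, and the groups did not overlap. The means were 17780 ± 1389 (SD, n = 2) and 87970 ± 18849 (SD, n = 2), 4.95-fold lower in *Pich*-KO, with a log2 fold change of -2.29 ± 0.13 (SE, limma with adjusted p = 4.65e-05).

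*Hba-a2*, the second copy of the adult alpha gene, had 3840 and 3397 normalized counts in *Pich*-KO against 23512 and 6379 in *Pich*-WT. *Pich*-WT sample 2 lay nearer to the *Pich*-KO samples than to the other *Pich*-WT sample. The means were 3618 ± 314 (SD, n = 2) and 14946 ± 12115 (SD, n = 2), 4.13-fold lower in *Pich*-KO, with a log2 fold change of -1.76 ± 0.48 (SE, limma with adjusted p = 0.0418). This call was lost with a pseudocount of 0.1 (limma, adjusted p = 0.104) and with no filter on the mean (limma, adjusted p = 0.141), and the log2 fold change was -0.82 without *Pich*-WT sample 1 and -2.70 without *Pich*-WT sample 2.

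*Hba-a1* and *Hba-a2* also differ at 1 coding base, and 89.3% of the 50-base stretches of *Hba-a2* are in *Hba-a1*. *Hba-a2* made up 18.6%, 15.3% and 18.8% of their reads in *Pich*-KO samples 1 and 2 and *Pich*-WT sample 1, and 7.87% in *Pich*-WT sample 2. That sample therefore stood apart in how the reads were split, not in the order of the groups. With the reads summed, the log2 fold change was -2.23 ± 0.17 (SE, limma with adjusted p = 0.000125), and it passed the threshold with a pseudocount of 0.1 and with no filter as well.

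*Hbb-bh1*, an embryonic beta-like gene first used in the yolk sac, had 19.6 and 34.1 normalized counts in *Pich*-KO against 173 and 216 in *Pich*-WT. These stand for 18, 30, 221 and 216 reads in the same order. The groups did not overlap. The means were 26.9 ± 10.2 (SD, n = 2) and 194 ± 30.6 (SD, n = 2), 7.23-fold lower in *Pich*-KO, with a log2 fold change of -2.85 ± 0.34 (SE, limma with adjusted p = 0.00101).

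*Hbb-y*, the other embryonic beta-like gene, had 596 and 641 normalized counts in *Pich*-KO against 721 and 248 in *Pich*-WT. The *Pich*-KO samples lay between the *Pich*-WT samples. The log2 fold change was 0.55 ± 0.42 (SE, limma with adjusted p = 0.461), and it was 1.31 without *Pich*-WT sample 1 and -0.22 without *Pich*-WT sample 2, so its sign rested on the latter sample.

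*Hba-x*, the embryonic alpha-like gene, had 135 and 98.9 normalized counts in *Pich*-KO against 172 and 28.0 in *Pich*-WT. The groups overlapped in the same way as for *Hbb-y*, with *Pich*-WT sample 2 lowest. The log2 fold change was 0.72 ± 0.71 (SE, limma with adjusted p = 0.571), and it was 2.01 without *Pich*-WT sample 1 and -0.57 without *Pich*-WT sample 2. A p that misses the threshold does not show that *Hbb-y* and *Hba-x* were equal in the groups.

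*Pich*-WT sample 2 also stood apart on the Y chromosome, with 0 reads on *Ddx3y*, *Uty*, *Kdm5d* and *Eif2s3y* against 1607 to 2848 in the other samples. The *Pich*-WT samples thus differed in Y-linked reads as samples of unlike sex would, while both *Pich*-KO samples held such reads. The part of this difference in the globin values was not tested. The limma calls rest on a variance shared across genes that follows the mean, as an exact two-sided permutation test of 2 samples against 2 cannot go below p = 0.333. Without that trend 0 of the 7 genes and 0 of all genes passed, with an adjusted p of 0.0852 for *Hbb-bs*, *Hbb-bt* and *Hba-a1* by limma, although 7377 genes had an unadjusted p under 0.05. Without *Pich*-KO sample 1, 3 of the genes passed the threshold, and 0 passed without each of the other samples in turn, with the log2 fold changes of *Hbb-bs* between -3.32 and -3.02.

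**Figure D2:**
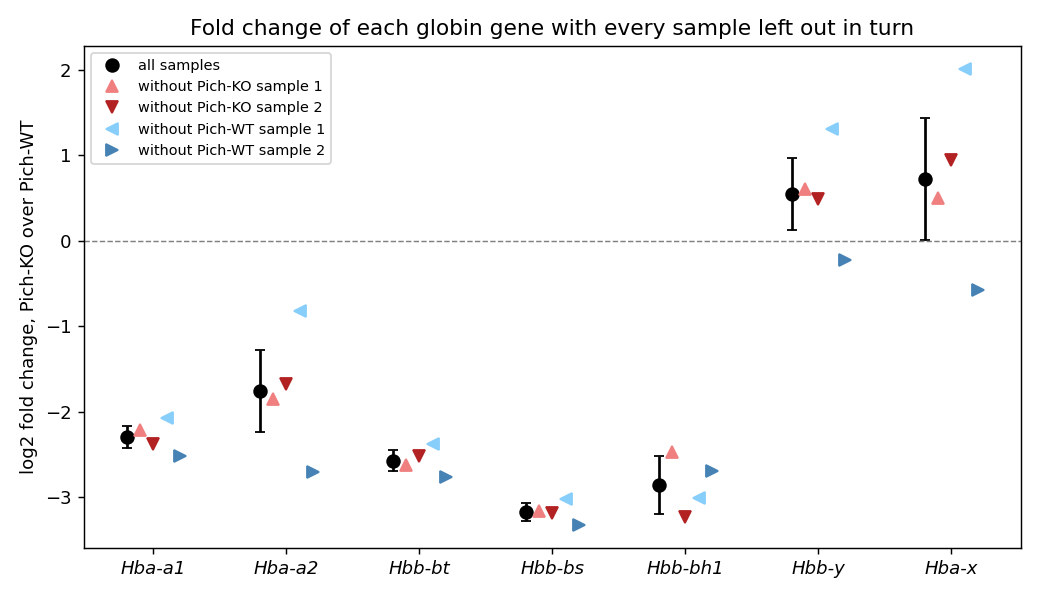
Log2 fold change of each globin gene (vertical axis, *Pich*-KO over *Pich*-WT) with all 4 samples (black, bars are standard errors) and with each sample left out in turn (triangles). *Hbb-bs*, *Hbb-bt*, *Hba-a1*, *Hba-a2* and *Hbb-bh1* remain below 0 in every fit, and *Hbb-y* and *Hba-x* fall below 0 without *Pich*-WT sample 2.

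The order of the levels was compared per kilobase of exon, as the genes differ in length. *Hba-a1* was highest in every sample, at 20687 and 23106 normalized counts per kilobase in *Pich*-KO against 124751 and 91924 in *Pich*-WT. *Hbb-bt* was next in every sample. *Hba-a2* came before *Hbb-bs* in 3 samples and after it in *Pich*-WT sample 2, at 9564 against 20379 per kilobase, so these neighbours did not keep their order. In that sample *Hba-a2* held only 7.87% of the adult alpha reads. The split of reads within each adult pair is uncertain, and so is the order of single adult genes.

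Of the embryonic genes *Hbb-y* was highest in every sample, at 941 and 1013 per kilobase in *Pich*-KO against 1138 and 392 in *Pich*-WT. *Hbb-bh1* was the lowest gene in both *Pich*-KO samples, at 32.0 and 55.6 per kilobase against 144 and 105 for *Hba-x*. In both *Pich*-WT samples *Hbb-bh1* was above *Hba-x*, at 282 and 352 against 183 and 29.9 per kilobase. The last places in the order were thus exchanged between the groups.

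Summed over the 7 genes, globin took 0.166% and 0.173% of the reads in *Pich*-KO against 1.06% and 0.760% in *Pich*-WT. The summed normalized counts were 27555 and 28838 against 173057 and 118339, so both *Pich*-KO samples were far below both *Pich*-WT samples. The difference of the log2 sums was -2.34, a 5.08-fold lower level in *Pich*-KO, with p = 0.333 by an exact two-sided permutation test, the smallest p that 2 samples against 2 can give. The 3 embryonic genes alone summed to 750 and 774 normalized counts in *Pich*-KO against 1065 and 492 in *Pich*-WT, and these overlapped.

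The make-up of the globin RNA differed as well. The embryonic share of the beta-like RNA, which does not depend on the scaling between samples, was 10.2% and 11.6% in *Pich*-KO against 2.15% and 1.45% in *Pich*-WT, per kilobase. It was higher by 9.1 percentage points in *Pich*-KO, with no overlap and p = 0.333 by the exact permutation test. In reads the share was 9.07% (95% Wilson interval 8.38% to 9.81%) and 10.3% (9.51% to 11.1%) in *Pich*-KO against 1.86% (1.75% to 1.97%) and 1.24% (1.14% to 1.36%) in *Pich*-WT.

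The adult beta genes, in the denominator of this share, were lower in *Pich*-KO, *Hbb-bh1* was lower as well, and *Hbb-y* overlapped between the groups. Within the embryonic beta-like reads *Hbb-y* made up 96.8% and 95.0% in *Pich*-KO against 80.7% and 53.5% in *Pich*-WT. *Hbb-bh1* therefore held a smaller part of the embryonic beta-like reads in both *Pich*-KO samples than in either *Pich*-WT sample.

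The embryonic share of the alpha-like RNA was 0.542% and 0.373% in *Pich*-KO against 0.114% and 0.0294% in *Pich*-WT, per kilobase. The groups did not overlap, with a difference of 0.385 percentage points and p = 0.333 by the exact permutation test. In reads the Wilson intervals were 0.546% to 0.776% and 0.360% to 0.548% in *Pich*-KO, above 0.121% to 0.157% and 0.0239% to 0.0499% in *Pich*-WT.

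The ratio of alpha-like to beta-like RNA per kilobase was 2.79 and 3.07 in *Pich*-KO against 2.42 and 1.98 in *Pich*-WT. It was higher in both *Pich*-KO samples, with a difference of 0.42 on the log2 scale and p = 0.333 by the exact permutation test. Beta-like RNA was thus lower by more than alpha-like RNA, by a step that was small beside the drop of both.

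**Figure D3:**
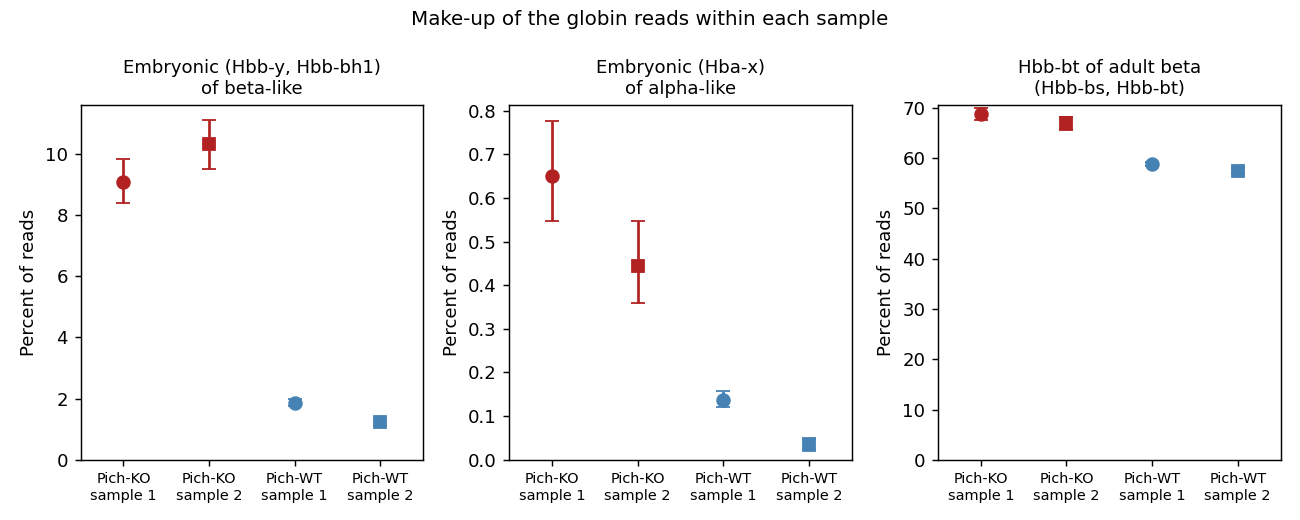
Share of reads (percent, each axis from 0) in each sample for the embryonic genes among beta-like reads, for *Hba-x* among alpha-like reads and for *Hbb-bt* among the adult beta reads, with 95% Wilson intervals for counting error. In all 3 panels both *Pich*-KO samples lie above both *Pich*-WT samples, at 9.07% and 10.3% against 1.86% and 1.24% in the first.

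Other genes of the globin family had few reads. *Hbq1b*, a theta-like gene of the alpha cluster, was lower in *Pich*-KO with 39.3 and 70.5 normalized counts against 134 and 110 and a log2 fold change of -1.19 ± 0.34 (SE, limma with adjusted p = 0.0488). This call was lost with a pseudocount of 0.1 (limma, adjusted p = 0.0796) and with no filter (limma, adjusted p = 0.103). The other 5, *Hbb-bh2*, *Hbq1a*, *Mb*, *Cygb* and *Ngb*, had at most 7.82 normalized counts in any sample and did not pass the test. Of 13 further tested genes listed for their position near globin clusters, 3 lie on other chromosomes in the mouse (*Polr3k*, *Luc7l* and *Fam234a*) and were left out. Of the remaining 10, on chromosomes 7 and 11, 2 were higher and 2 lower, where 7.58% and 9.60% of all genes tested were. Their median log2 fold change was -0.11. The extremes were *Trim30a*, known as induced by interferon and 0.56 Mb from the beta cluster, at 1.69 (limma, adjusted p = 0.000245) and *Dchs1*, at 1.9 Mb, at -3.57 (limma, adjusted p = 0.000425). Closest to the alpha cluster among the genes called was *Rhbdf1*, 0.05 Mb away, at -3.06 (limma, adjusted p = 0.000625). *Snrnp25*, 0.07 Mb from that cluster, was at 0.47 (limma, adjusted p = 0.0436). *Nprl3*, whose introns hold the alpha-globin enhancers, had a log2 fold change of 0.29 (limma, adjusted p = 0.363) and was chosen by name after its value was seen.

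The genes known to control the globin loci did not move one way. Of 37 regulators, 8 were higher and 10 lower by limma, with a median log2 fold change of -0.03. These are 21.6% and 27.0% of the list, both above the 7.58% and 9.60% of all genes tested. Of 11 activators of globin transcription, 6 were lower and 2 higher (54.5% and 18.2%), with a median of -0.49. *Klf1*, the factor that binds CACCC in adult beta-globin promoters, had 1179 and 1598 normalized counts in *Pich*-KO against 2461 and 2107 in *Pich*-WT, and a log2 fold change of -0.73 (limma, adjusted p = 0.0179). *Tal1* and *Ldb1*, of the complex that joins enhancer and promoter, fell by 0.65 (limma, adjusted p = 0.0276) and 1.06 (limma, adjusted p = 0.0214) on the log2 scale. With no filter on the mean the calls of *Klf1*, *Tal1* and *Ldb1* were lost (limma, adjusted p = 0.063, 0.0662 and 0.083), and that of *Ldb1* also with a pseudocount of 0.1 (limma, adjusted p = 0.0582).

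*Gata1*, the GATA factor of red-cell genes, had 884 and 928 normalized counts in *Pich*-KO against 1282 and 1059 in *Pich*-WT, and a log2 fold change of -0.36 that did not pass (limma, adjusted p = 0.132). *Nfe2*, which binds the locus control region, had one of -0.29 (limma, adjusted p = 0.137). *Lyl1*, a relative of *Tal1*, was the activator with the largest rise, 0.56 (limma, adjusted p = 0.0123). The log2 fold changes of the activators were smaller in size than those of *Hbb-bs* and *Hba-a1*, and their part in the globin result was not tested.

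Of 20 silencers of embryonic globin, 5 were higher and 3 lower (25.0% and 15.0%), with a median log2 fold change of 0.02. Of all genes tested 7.58% were higher and 9.60% lower. *Bcl11a*, a repressor of *Hbb-y* and *Hbb-bh1*, had 1422 and 1341 normalized counts in *Pich*-KO against 1215 and 1115 in *Pich*-WT, and a log2 fold change of 0.25 that did not pass (limma, adjusted p = 0.232). *Sox6*, which acts with BCL11A, fell by 1.30 (limma, adjusted p = 0.00314), with 121 and 138 normalized counts against 310 and 329. *Myb*, a factor of progenitors, rose by 0.57 (limma, adjusted p = 0.0162), and *Zbtb7a*, a second repressor of fetal globin in humans, had a log2 fold change of -0.27 (limma, adjusted p = 0.192).

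At the ends of this list were *Chd4*, the remodeller of the NuRD complex, at 0.79 (limma, adjusted p = 0.0029) and *Nfia*, a nuclear factor I gene, at -2.21 (limma, adjusted p = 0.000938). Of 6 genes of the fetal stage, 1 was higher and 1 lower (16.7% each). *Lin28b*, an RNA-binding protein of the fetal state, had 1096 and 1247 normalized counts in *Pich*-KO against 197 and 176 in *Pich*-WT, and a log2 fold change of 2.64 (limma, adjusted p = 6.16e-05). *Klf2*, which takes part in embryonic beta-globin transcription in the yolk sac, had one of -0.59 (limma, adjusted p = 0.0245), a call lost with a pseudocount of 0.1 (limma, adjusted p = 0.0613) and with no filter (limma, adjusted p = 0.087).

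Red-cell genes outside the globin family were lower as well. Of 45 tested, 29 were lower and 1 higher by limma, with a median log2 fold change of -0.78, and 64.4% lower compares with 9.60% of all genes. Of 13 genes of heme synthesis 9 were lower and 0 higher. *Alas2*, the first enzyme of the pathway in red cells, had 539 and 471 normalized counts in *Pich*-KO against 5106 and 3506 in *Pich*-WT, and a log2 fold change of -3.07 (limma, adjusted p = 5.75e-05). *Eif2ak1*, the kinase that slows globin translation when heme is short, had the smallest drop among those past the threshold, with a log2 fold change of -0.47 (limma, adjusted p = 0.0218). *Tfrc*, the transferrin receptor of dividing cells, had one of 0.25 that did not pass (limma, adjusted p = 0.252).

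Of 17 membrane genes of the red cell, 9 were lower and 1 higher. *Slc4a1*, the anion exchanger of the red-cell membrane, fell by 2.53 on the log2 scale (limma, adjusted p = 9.43e-06). *Aqp1*, a water channel that endothelial cells also express, fell by 3.71 (limma, adjusted p = 1.53e-05), and *Xk*, of the Kell complex, rose by 0.58 (limma, adjusted p = 0.0491). Of 15 further red-cell genes 11 were lower. Their ends were *Tspan33* at -3.50 (limma, adjusted p = 0.000249) and *Prdx2*, an antioxidant enzyme, at -0.72 (limma, adjusted p = 0.000945), while *Epor*, the erythropoietin receptor, had a log2 fold change of -0.78 (limma, adjusted p = 0.0335). The calls of *Epor* and *Xk* were lost with a pseudocount of 0.1 (limma, adjusted p = 0.071 and 0.0609) and with no filter (0.0973 and 0.0751). The log2 fold change of *Epor* was -0.46 without *Pich*-KO sample 1 and -1.10 without *Pich*-KO sample 2.

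**Figure D4:**
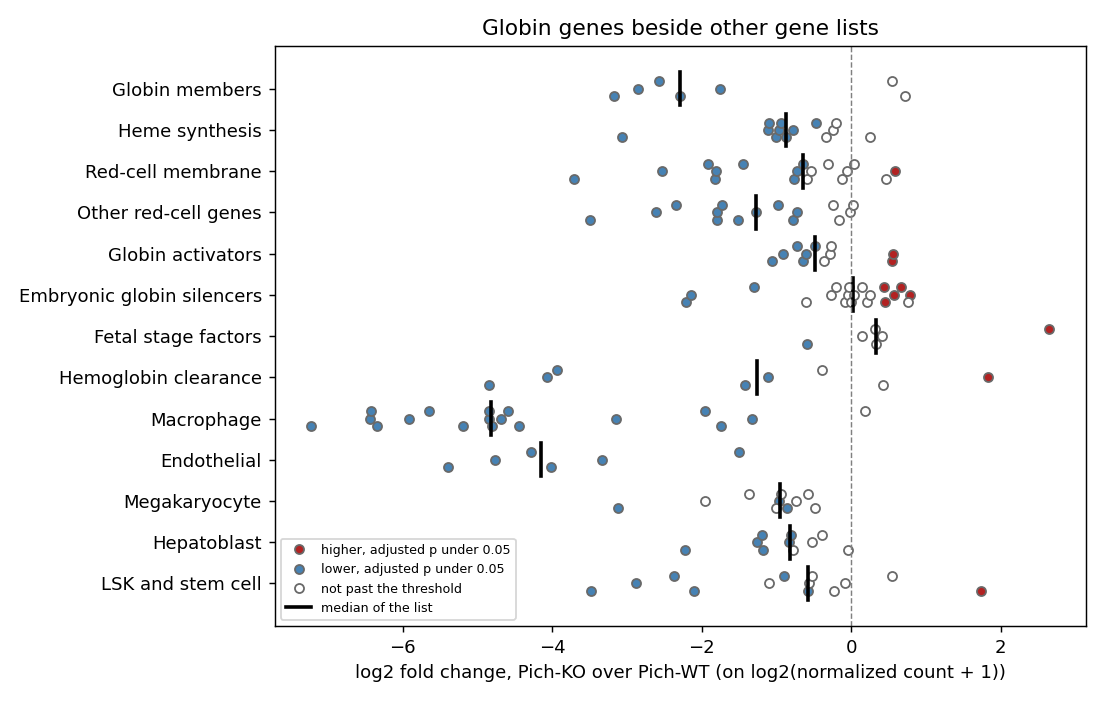
Log2 fold change (horizontal axis, *Pich*-KO over *Pich*-WT) of each tested gene in 13 lists, with colored points for genes past an adjusted p of 0.05 by limma, open points for the others and a bar at the median. The medians lie at -2.29 for the globin members, -0.87 for heme synthesis, -0.49 for the activators and 0.02 for the silencers, and at -4.82 and -4.15 for macrophage and endothelial genes.

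Most macrophage and all endothelial genes listed were lower in *Pich*-KO, while the medians of the lists of other cell types moved less. The counts called in these lists compare with 7.58% higher and 9.60% lower among all genes tested. Of 18 macrophage genes, 17 were lower in *Pich*-KO, with a median log2 fold change of -4.82 and a summed level of 15328 and 14160 normalized counts against 82662 and 83521. Their ends were *Marco* at -7.22 ± 1.08 (SE, limma with adjusted p = 0.00284) and *Csf1r* at -1.33 (limma, adjusted p = 0.000111), and *Vsig4* had 0 reads in *Pich*-KO sample 2. *Marco* had 3.27 and 77.3 normalized counts in the *Pich*-KO samples, with a log2 fold change of -5.12 without sample 1 and -9.32 without sample 2 of that group. *Adgre1*, *C1qa* and *Vcam1*, genes of the FL macrophages that hold erythroblasts, had log2 fold changes of -4.84, -5.65 and -6.34. These are larger drops than that of any globin gene, and their part in the globin result was not tested.

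Of 8 genes for clearing hemoglobin, many of them expressed by macrophages, 5 were lower and 1 higher. *Slc40a1*, the iron exporter, had a log2 fold change of -4.85 (limma, adjusted p = 4.55e-06) and *Cd163*, the receptor for hemoglobin bound to haptoglobin, one of -3.94 (limma, adjusted p = 0.00121). *Hp*, haptoglobin itself, was higher with 701 and 2106 normalized counts against 370 and 315 (log2 fold change 1.83, adjusted p = 0.0217, limma). Its call was lost with a pseudocount of 0.1 (limma, adjusted p = 0.0628) and with no filter (limma, adjusted p = 0.09), and the log2 fold change was 2.62 without *Pich*-KO sample 1 and 1.04 without *Pich*-KO sample 2.

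All 6 endothelial genes were lower, with a median log2 fold change of -4.15 and summed levels of 2732 and 1599 against 30576 and 20955 normalized counts, from *Lyve1* at -5.39 to *Pecam1* at -1.50, with *Lyve1* at -5.98 without *Pich*-KO sample 1 and -4.81 without *Pich*-KO sample 2. Of 10 megakaryocyte genes 3 were lower and 0 higher, from *Pf4* at -3.12 to *Itga2b* at -0.86, with summed levels of 1254 and 1292 against 5497 and 3267, and *Gp1bb* was at 0 reads in *Pich*-KO sample 2 and *Pich*-WT sample 2. The call of *Itga2b* was lost with a pseudocount of 0.1 (limma, adjusted p = 0.0886) and with no filter (limma, adjusted p = 0.118). Of 10 hepatoblast genes 6 were lower and 0 higher, from *Trf* at -2.22 to *Apoa2* at -0.81, with *Alb* at -0.83. Their part in the globin result was not tested either.

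Of 10 neutrophil genes 3 were higher, between *Mpo* at 2.63 and *Prtn3* at 2.73. Over the 10 genes the summed level was 64514 and 121502 normalized counts in *Pich*-KO against 16684 and 19392 in *Pich*-WT, so *Pich*-KO sample 2 stood apart. *Mpo* alone held 54647 and 90492 of the *Pich*-KO sums, and 10351 and 12533 of the *Pich*-WT sums. The median log2 fold change of the list was 0.07, with 5 of the 10 genes below 0, so the sums mostly follow *Mpo*. Of 9 lymphoid genes 1 was lower, *Cd4* at -2.50, with -3.41 and -1.59 without *Pich*-KO samples 1 and 2, and its call was lost with a pseudocount of 0.1 (limma, adjusted p = 0.0514) and with no filter (limma, adjusted p = 0.0727). Of 13 genes of the sort and of stem cells, 1 was higher and 6 lower. *Ly6a*, which encodes Sca-1, had 3586 and 2978 normalized counts in *Pich*-KO against 901 and 1061 in *Pich*-WT, and a log2 fold change of 1.74 (limma, adjusted p = 0.000167). *Kit* had one of 0.54 (limma, adjusted p = 0.114), and *Tek* was lowest at -3.48 (-4.24 and -2.73 without *Pich*-KO samples 1 and 2) and *Gata2* nearest to 0 among the lower ones at -0.58. The other stem-cell genes called lower were *Procr* at -2.88, *Hlf* at -2.37, *Mecom* at -2.1 and *Slamf1* at -0.9. *Kit* and *Ly6a*, which define the sort, were detected in every sample, beside globin and the red-cell membrane gene *Slc4a1*.

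The 5 genes whose pattern over the 4 samples was nearest to the mean of the 4 adult globin genes were *Clu*, *Ackr1*, *Spns2*, *Timp3* and *Acvr1*, at distances of 0.104 to 0.209. The distance is Euclidean on centred log2(normalized count + 1) among 10114 protein-coding genes with a mean of at least 100. *Clu*, which encodes the secreted chaperone clusterin, had 96.0 and 95.5 normalized counts in *Pich*-KO against 691 and 374.0 in *Pich*-WT. *Ackr1*, a chemokine receptor of red cells and venules, had 39.3 and 39.8 against 288 and 187. Among the members themselves, *Hbb-bt* and *Hba-a1* lay at 0.288 and 0.301, *Hbb-bh1* at 1.03, and *Hbb-y* and *Hba-x* at 3.04 and 3.43. The 5 genes were picked as the nearest of those compared, and with 4 samples the likeness is a description only.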

How the data were processed

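The authors deposited one table of 39186 genes in which the signal of each sample is its reads per gene divided by a size factor, relative to *Pich*-WT sample 2. The submitters' processing notes name Bowtie 0.12.2 and builds mm8 and mm9, but 97.8% of 39131 genes matched, with all 7 globin genes, had the positions of GENCODE M21 on GRCm38, which are printed here. The counter is not given in the sources used here. The deposited log2 fold changes and p-values of the authors' own comparison and their group means were not used.

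Whole reads were recovered for 100% of values, 14703215 to 20933919 reads on genes per sample. Within each group the samples differed beyond sampling noise (chi-square per degree of freedom 14.7 in *Pich*-KO and 8.18 in *Pich*-WT). limma 3.58.1 (R 4.3.3) was run with a pseudocount of 1, a prior variance that follows the mean, genes with a mean of at least 1 and Benjamini-Hochberg adjustment. Fold changes understate those of low genes. Alternatives were edgeR 4.0.16 and DESeq2 1.42.0 on recovered reads, other filters, a replicate block and leaving out each sample. The procedure was also run on simulated data in which all genes shared the same spread between samples beyond counting error. Its error rate on the samples used here was therefore not measured.

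The symbols of the members and the gene lists were chosen with earlier results of these data known. Named were all members, the ends of each list among genes past the threshold, fixed regulators and markers, and the 5 genes most like the adult globins. Coding sequences and transcripts came from GENCODE M21, promoters from RefSeq. The values of a further gene are left out.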

Additional observations from a re-analysis of the deposited data

How the results depend on the processing

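With one variance prior for all genes in place of a trend, limma called 0 genes higher and 0 lower, and 0 globin genes, red-cell genes and regulators in either direction. Tested against an absolute change of at least 1 on the log2 scale, 150 genes rose and 757 fell. Of the globin genes 4 were lower and 0 higher, and the call of *Hba-a2* was lost (limma, adjusted p = 0.956). In the same setting 0 red-cell genes were higher and 12 lower, and 1 regulator was higher and 2 lower. The count of red-cell genes higher was 0 with a pseudocount of 0.1 and with no filter, and without the filter 4 regulators were lower. Leaving out 1 sample, where the lone sample of a group is assumed to vary like the other group, gave 0 to 548 genes higher and 0 to 1193 lower. The same fits gave 0 to 3 globin genes lower, 0 to 10 red-cell genes lower, 0 red-cell genes higher in each, and 0 to 2 regulators higher and 0 to 4 lower. Calls were made without *Pich*-KO sample 1 and in no other of these 4 fits. *Hbb-y* and *Hba-x* turned to log2 fold changes of -0.22 and -0.57 without *Pich*-WT sample 2, and reached 1.31 and 2.01 without *Pich*-WT sample 1. The cause was not tested.

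Same-numbered samples deviated with a correlation of 0.0133 over 10544 genes, which gave no sign of pairing by number. With 2 samples per group this value cannot show whether same-numbered samples shared a batch. With the number as a replicate block, 3122 genes were higher and 3874 lower, 5 globin genes, 31 red-cell genes and 10 regulators were lower, and 1 red-cell gene and 10 regulators were higher. Under edgeR with either scaling and DESeq2 the same 5 globin genes were lower, and the median of all genes moved by at most 0.03 on the log2 scale. Reads limit *Hbb-bh1*, with 18 and 30 in *Pich*-KO.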
